A study of Homo sapiens with 6 samples.

Results

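The transcription factors TWIST1, SNAI1, SNAI2, ZEB1 and ZEB2, the cadherins CDH1 and CDH2 and the filament protein VIM are the usual RNA readouts of epithelial-mesenchymal transition. They were followed here in Ju77 cells, a human malignant mesothelioma line, by taking every array probe annotated to one of these symbols. They were represented by 11 of the 47225 probes on the array, and by 8 of the 20044 genes named on it. One group was 3 arrays of Ju77 cells resistant to ADI-PEG20, a pegylated arginine deiminase that removes arginine from the medium, and the other was 3 arrays of parental Ju77 cells. All cells carried the same label for origin, mesothelioma cells from lung, and RNA was taken the day after plating. Each group is 1 cell line, so resistance and other differences between these lines cannot be told apart. The sources used here do not give how resistance was obtained, or whether the drug was present at harvest. Nothing in the labels says that replicates came from separate cultures, and p-values reflect only how these arrays varied, which may be technical.

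In epithelial-mesenchymal transition, epithelial cells loosen their junctions and take on a migratory, fibroblast-like form. The zinc-finger factors SNAI1, SNAI2, ZEB1 and ZEB2 bind E-boxes and repress epithelial genes such as CDH1, which encodes E-cadherin, while the helix-loop-helix factor TWIST1 also activates mesenchymal genes. Cells that complete the switch carry N-cadherin (CDH2) in place of E-cadherin and a network of vimentin. Mesothelial cells, and the tumours that arise from them, normally show both epithelial features such as keratins and mesenchymal ones such as vimentin and N-cadherin. In bulk RNA, fewer cells of a type and less RNA per cell cannot be told apart.

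Probes detected per array numbered 19024 to 20113. Mean intensity before normalisation was 469.911 to 499.002 on parental and 415.268 to 453.827 on resistant arrays, so the groups did not overlap in it. They did overlap in median intensity, 126.632 to 131.936 on parental and 118.822 to 126.689 on resistant arrays. Within a group the arrays correlated at 0.99248 to 0.99517. ASS1, the arginine-making enzyme whose loss makes cells sensitive to ADI-PEG20, was 2.82-fold higher in resistant cells (log2 difference 1.49, SE 0.143, adjusted p = 1.22e-04 by limma over 10672 genes). Of 13 mesothelial markers 7 were measured, with 2 higher and 3 lower (median -0.329). That is 71.4% called, against 45.4% of all tested genes. Mesothelin (MSLN) did not pass the test (0.12). CALB2 (calretinin) and KRT7 rose by 2.74 and 1.92 on the log2 scale, or 1.61 and 1.17 without background subtraction. PDPN and LRRN4 fell by 2.38 and 0.79, PDPN by 0.96 without background subtraction. PDPN was dim on resistant arrays, with intensities of 113.57 to 128.873, and 6 of the 7 markers were detected on all resistant arrays. BNC1 went from 8.25, 8.18 and 8.11 on parental to 7.75, 7.47 and 7.48 on resistant arrays. WT1 went from 7.16, 6.85 and 6.99 to 6.87, 6.51 and 6.64, and its groups overlapped. The other CALB2 probe gave 0.60 (adjusted p = 0.00161 over all tested probes). Measured were also 2 of 10 lung epithelial, 1 of 10 endothelial and 2 of 15 leukocyte markers. The lung epithelial ones were NKX2-1 (-0.28, not called) and EPCAM, called lower (-2.01). The endothelial one, TIE1, was detected on all parental arrays and no resistant array. TIE1 was at least 1.91-fold lower on the background-corrected scale (log2 difference -0.41 without background subtraction). The leukocyte ones were CD68, called higher (0.25, a call lost in 9 of 18 alternatives), and HLA-DRA (0.04, not called). Detected on no array were 4 of 8 unmeasured lung epithelial, 9 of 9 endothelial and 10 of 12 leukocyte markers. Among these were PTPRC (leukocytes), PECAM1 and VWF (endothelium) and SFTPC (lung epithelium).

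The microRNAs that act on ZEB1 and ZEB2 are shown because the seed of each is the part that pairs with the message. The miR-200 family and miR-205 bind sites in the ZEB1 and ZEB2 messages and lower them, and ZEB factors repress the miR-200 genes in turn. The mature sequences are RefSeq's on GRCh38.p14, 5′ to 3′, with the seed (bases 2 to 8) in capitals. The genes of miR-200c and miR-141 lie on chromosome 12 and the others on chromosome 1.
hsa-miR-200b-3p: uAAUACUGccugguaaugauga
hsa-miR-200c-3p: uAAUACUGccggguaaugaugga
hsa-miR-429: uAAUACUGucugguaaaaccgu
hsa-miR-200a-3p: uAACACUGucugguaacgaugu
hsa-miR-141-3p: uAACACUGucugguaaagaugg
hsa-miR-205-5p: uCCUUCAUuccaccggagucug
The first 3 share the seed AAUACUG, the next 2 share AACACUG, and miR-205 has a seed of its own. The array carried 6 probes to the precursors of these microRNAs, chosen after the annotation of the array had been seen. Their intensities lay between 99.1 and 145.2, and 1 of them, to MIR200A, was detected on 1 of the 6 arrays. Mature microRNAs were not measured by these probes.

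Among the members, SNAI2 rose most, ZEB2 and CDH2 rose by less, TWIST1 fell slightly, and VIM did not pass the test. SNAI1, ZEB1 and CDH1 were not detected on any array. Probes were tested if all 3 arrays of either group detected them at p under 0.05, and this kept 7 of the 11 member probes, for 5 of the 8 genes. Of these 7 probes 4 were higher, 1 was lower and 2 were not called at an adjusted p under 0.05 (limma, Benjamini-Hochberg over 17843 probes), against 38.8% of all tested probes called, 18.7% higher and 20.2% lower. Adjusted p-values of member probes below come from this fit. The groups did not overlap for 6 of the 7 member probes, against 51.5% of all tested probes, and for 4 of the 5 member genes, against 56% of all tested genes. With so many features called, these counts are not a result about the members, and each is described by its own size and spread.

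**Figure D1:**
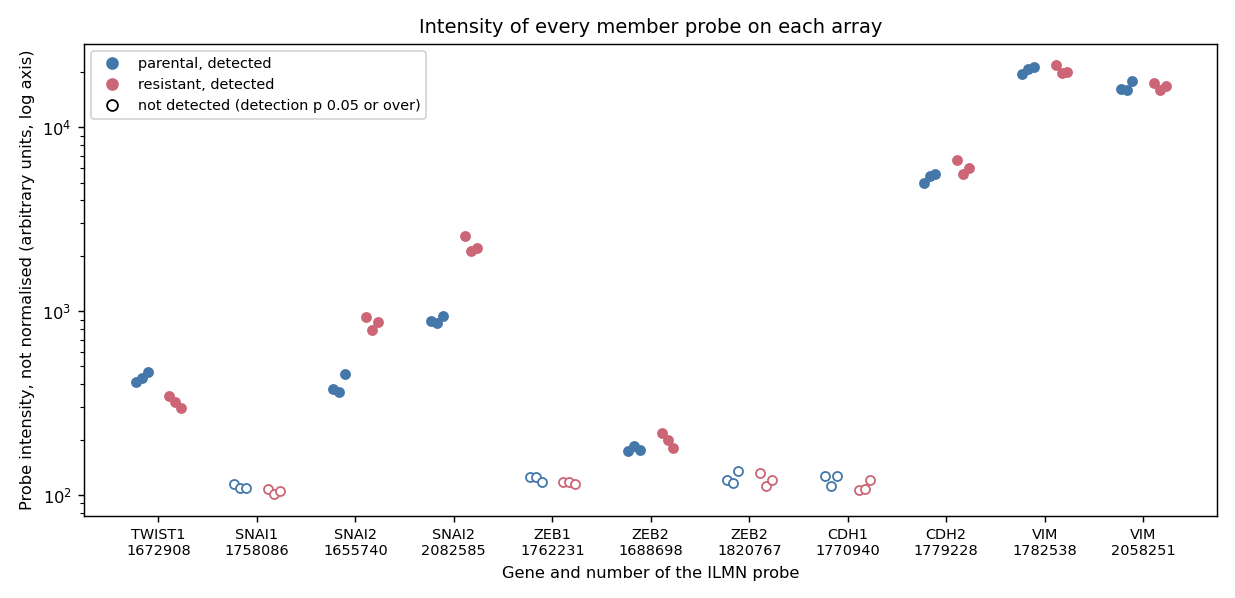
Probe intensity on the 6 arrays as deposited, before background correction, on a log axis, for the 11 member probes, with parental and resistant arrays in separate colours and open points where the probe was not detected. The SNAI2 probes separate between the groups, and all points are open for the SNAI1, ZEB1 and CDH1 probes and 1 ZEB2 probe.

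SNAI2, also called Slug, is a zinc-finger repressor of epithelial genes that normally also acts in neural crest cells. Its brighter probe had intensities of 880.743, 856.568 and 946.396 on the parental arrays and 2576.7, 2124.14 and 2200.53 on the resistant arrays. All resistant arrays lay above all parental arrays, by more than the spread within either group. After background correction and quantile normalisation its log2 level went from 9.49 ± 0.024 (SD, n = 3) to 11.24 ± 0.071 (SD, n = 3), a difference of 1.74 (SE 0.080, 95% interval 1.56 to 1.93, 3.35-fold, adjusted p = 5.77e-06). The other SNAI2 probe gave 375.402, 361.858 and 455.268 in parental and 932.54, 789.824 and 874.016 in resistant cells. That is a log2 difference of 1.64 (SE 0.101, 95% interval 1.41 to 1.88, 3.12-fold, adjusted p = 2.35e-05). The intervals of the SNAI2 probes overlapped. Of all tested probes 0.583% rose further than the brighter SNAI2 probe and 0.673% further than the other.

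ZEB2 is a zinc-finger homeodomain repressor that acts with SMAD proteins. Its detected probe was dim, with intensities of 174.07, 185.487 and 176.309 in parental and 216.524, 199.742 and 179.753 in resistant cells. The third resistant array fell within the parental range at this stage. On the normalised log2 scale the parental arrays read 6.08, 6.32 and 5.98 and the resistant arrays 6.86, 6.90 and 6.46, and the groups no longer overlapped. The difference was 0.61 (SE 0.144, 95% interval 0.28 to 0.95, 1.53-fold, adjusted p = 0.0119), and 0.29 when no background was subtracted. The other ZEB2 probe had intensities of 111.629 to 135.907 and detection p-values of 0.0597 to 0.555. It was left out as not detected on any array, so the ZEB2 value rests on 1 probe.

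TWIST1 is a basic helix-loop-helix factor that pairs with E proteins and is used in mesoderm development. Its probe read 413.344, 433.896 and 467.44 in parental and 344.992, 319.161 and 298.874 in resistant cells. Every resistant array was below every parental array. The log2 level was 8.26 ± 0.077 (SD, n = 3) in parental and 7.90 ± 0.139 (SD, n = 3) in resistant cells, a difference of -0.36 (SE 0.099, 95% interval -0.59 to -0.13, 1.28-fold, adjusted p = 0.0232). Of all tested probes 18.6% fell further. The call was lost without parental replicate 2 (adjusted p = 0.0698), without parental replicate 3 (0.076) and without resistant replicate 3 (0.065).

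SNAI1, or Snail, is the factor most closely tied to early repression of E-cadherin. Its probe read 114.106, 109.332 and 109.628 in parental and 107.338, 101.074 and 104.643 in resistant cells, with detection p-values of 0.655 to 0.961. ZEB1, the paralogue of ZEB2, read 124.676, 125.434 and 117.673 in parental and 118.259, 117.678 and 114.674 in resistant cells, with detection p-values of 0.168 to 0.701. Neither probe was detected on any array, so no difference can be given for them. With 1 probe each, this says only that they were not detectable on these arrays.

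CDH1, which encodes E-cadherin of epithelial adherens junctions, was not detected on any array, with intensities of 126.378, 112.482 and 126.524 in parental and 106.365, 108.419 and 121.112 in resistant cells and detection p-values of 0.0857 to 0.936. CDH2, which encodes N-cadherin of neural, muscle and mesothelial junctions, read 4998.35, 5404.39 and 5561.79 in parental and 6662.91, 5563.94 and 6009.27 in resistant cells. Every resistant array was above every parental array, with the lowest resistant value just over the highest parental one. In log2 terms CDH2 went from 12.24 ± 0.057 (SD, n = 3) to 12.63 ± 0.043 (SD, n = 3), a difference of 0.39 (SE 0.080, 95% interval 0.20 to 0.57, 1.31-fold, adjusted p = 0.00688). Scaling the arrays to a common median in place of quantile normalisation gave 0.25 (adjusted p = 0.0597), which is 0.41 above the median of all genes under that scaling.

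VIM encodes vimentin, the intermediate filament protein of mesenchymal cells. Both of its probes were detected on all arrays. The first read 19560.3, 20857.1 and 21313.4 in parental and 21682.5, 19601.2 and 19922.7 in resistant cells, and the groups overlapped. The log2 difference was 0.06 (SE 0.081, 95% interval -0.13 to 0.25, adjusted p = 0.580). The other VIM probe gave 0.12 (SE 0.080, 95% interval -0.07 to 0.30, adjusted p = 0.271), although its normalised values did not overlap between groups. On each array at most 0.093% of probes were brighter than the first VIM probe, and at most 0.352% than the other. Whether signals this bright can still show a change was not tested. These intervals describe the normalised values only, and they do not show that the level of VIM was the same.

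**Figure D2:**
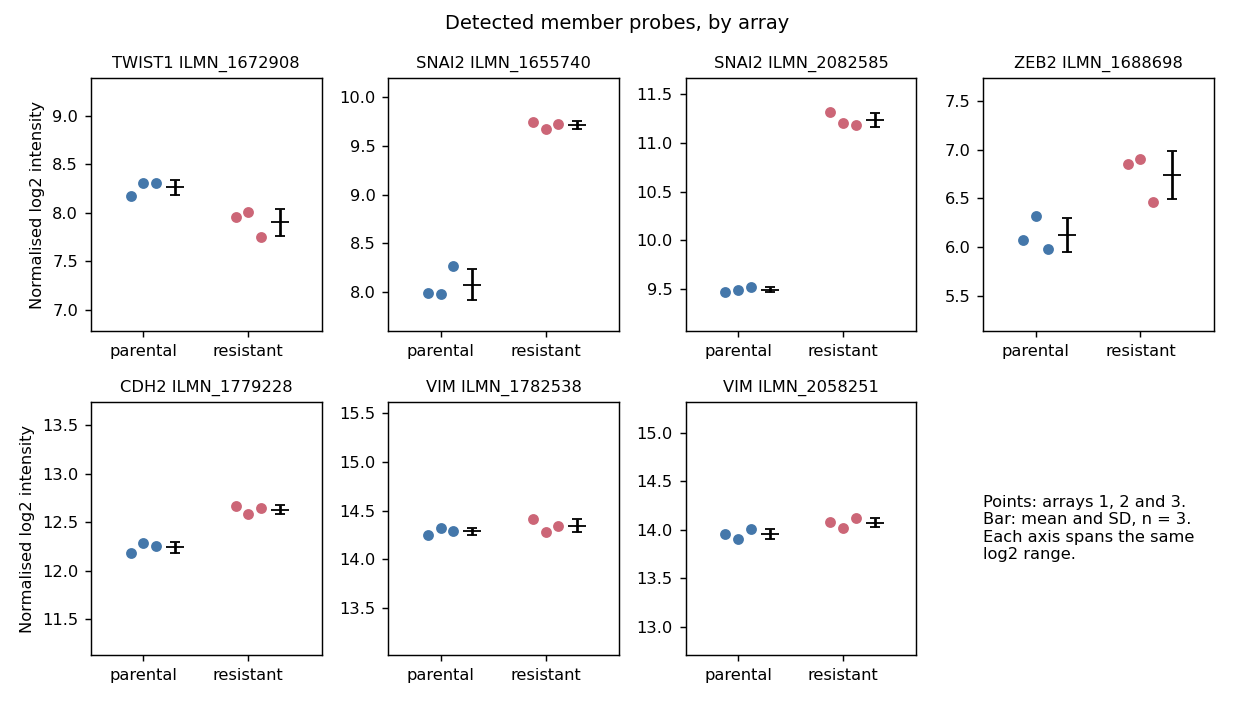
Background-corrected, quantile-normalised log2 intensity on each array for the 7 tested member probes, with parental and resistant arrays as separate points and a bar with the mean and SD (n = 3) beside them. The SNAI2 probes shift by 1.64 and 1.74, the ZEB2 probe by 0.61, the CDH2 probe by 0.39 and the TWIST1 probe by -0.36, while the VIM groups lie within 0.12 of each other.

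**Figure D3:**
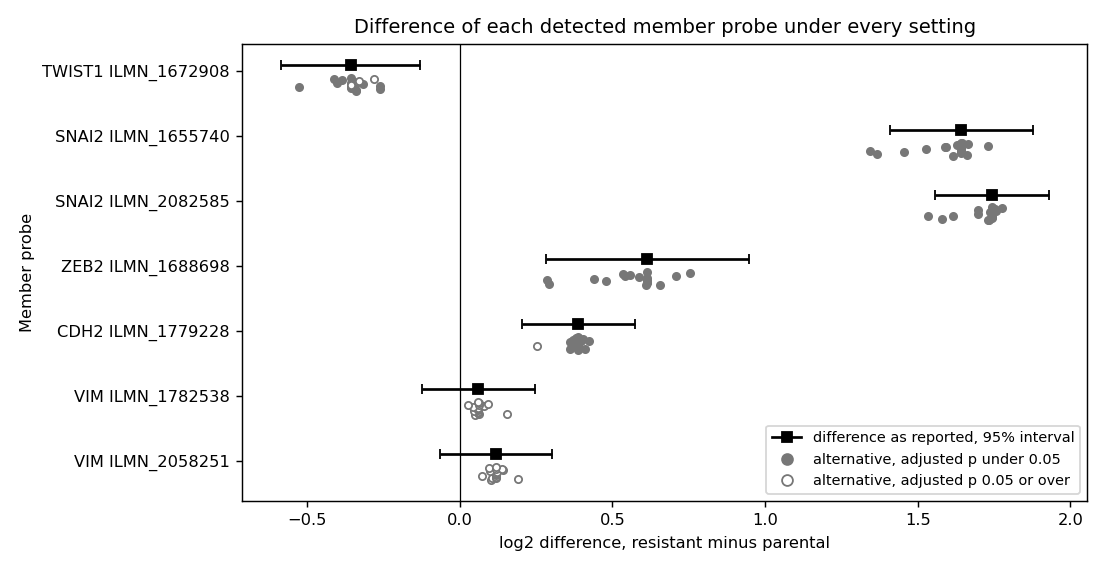
Log2 difference, resistant minus parental, of each tested member probe under the main processing and each alternative processing, including leaving out each array in turn. Squares carry the 95% interval and open points mark an adjusted p of 0.05 or over. The SNAI2 probes stay between 1.35 and 1.78 throughout, and no member probe changes direction.

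The other genes of the programme were taken from lists of related genes, each gene represented by its brightest kept probe, and judged in a limma fit over 10672 genes in which 45.4% were called, 22.4% higher and 23% lower, with a median log2 difference of -0.004006. When the arrays were scaled to a common median, the median of all genes moved to -0.152 and 28% of the called genes were higher, against 49.3% after quantile normalisation. Differences below are log2 differences, resistant minus parental, and counts are from the quantile fit, with those after median scaling where they part.

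Among other transcription factors tied to the transition, 13 of 20 were measured, and 6 were higher and 2 lower (median 0.201, 61.5% called). After median scaling 3 were higher and 2 lower. HMGA2, a chromatin protein that induces Snai1 and Twist1 in mouse mammary cells, was not detected on any resistant array. On the background-corrected scale it was at least 3.40-fold lower in resistant cells (adjusted p = 1.07e-04). This bound holds for that scale only, and without background subtraction HMGA2 fell by 0.80 on the log2 scale. SOX4, a factor upstream of Ezh2 in mouse mammary cells, rose by 1.59 (adjusted p = 3.01e-06), from 8.893, 8.996 and 8.904 on parental to 10.560, 10.491 and 10.517 on resistant arrays. ID2, which blocks E proteins, rose by 1.10 (adjusted p = 1.33e-04), or 0.44 without background subtraction, and TCF3, an E protein that can pair with TWIST1, rose by 0.76 (adjusted p = 0.00174). Of the other ID genes, ID1 fell by 0.66 (adjusted p = 2.80e-04), ID3 rose by 0.31 (adjusted p = 0.0123) and ID4 was detected on no array.

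Of 16 factors that keep cells epithelial, 4 were measured, and 1 was higher and 0 lower (median 0.166, 25% called). After median scaling 1 was higher and 1 lower, and without parental replicate 2 the higher count was 2. FOXA1, a forkhead factor of epithelial lineages, rose by 0.87 (adjusted p = 1.22e-04), or 0.56 without background subtraction. GRHL2, OVOL1, OVOL2, ESRP1 and ESRP2 were detected on no array.

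Corepressors and chromatin partners of the SNAI, ZEB and TWIST factors were measured for 17 of 20, with 2 higher and 5 lower (median -0.153, 41.2% called), and 2 higher and 9 lower after median scaling. EHMT2, the histone methyltransferase G9a, rose by 0.80 (adjusted p = 0.00173), or 0.31 without background subtraction. BMI1, a Polycomb protein induced by TWIST1, fell by 0.73 on the log2 scale (adjusted p = 2.84e-04), PRMT5, an arginine methyltransferase, fell by 0.69 (adjusted p = 0.001), and AJUBA, an adaptor of SNAI1, fell by 0.63 (adjusted p = 8.52e-04). The genes that modify the factors or mark them for degradation were measured for 15 of 19, with 4 higher and 4 lower (median 0.0789, 53.3% called), 2 and 4 after median scaling, and 2 higher without parental replicate 1. One of the lower genes, FBXW7 (-0.27, adjusted p = 0.0354), had kept probes called in opposite directions. CSNK2A1, a casein kinase subunit, fell by 0.75 (adjusted p = 5.66e-04), and its other probes gave -0.67 and -1.48, both called. DDB2, a DNA damage-binding subunit of an E3 ligase, rose by 0.60 (adjusted p = 6.19e-04), or 0.40 without background subtraction. FBXO45, an F-box protein, fell by 0.56 (adjusted p = 0.00831), or 0.17 without background subtraction, and was detected on 2 of 3 resistant arrays. USP51, a deubiquitinase, gave 0.46 (adjusted p = 0.0197), but 1 of 3 parental arrays detected it and the call was lost in 6 of 16 alternatives, among them no background subtraction (0.13).

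The wider cadherin family was little detected. Of 25 members listed, 6 were measured, and of the 17 others on the array 14 were detected on none of the 6 arrays. Of the 6, 4 were higher and 1 lower (median 0.478, 83.3% called), and 3 higher and 1 lower after median scaling. The lower gene, CDH24 (-0.44, adjusted p = 0.0171), was detected on 1 of 3 resistant arrays, and its call was lost in 6 of 17 alternatives, among them no background subtraction (-0.13) and leaving out parental replicate 1, resistant replicate 2 or resistant replicate 3. CDH10, a type II cadherin of brain, showed the largest rise in the list, from 6.31, 6.46 and 6.61 on parental to 9.42, 9.52 and 9.48 on resistant arrays, a difference of 3.01 (SE 0.094, adjusted p = 5.39e-07). CDH3, which encodes P-cadherin, was detected on no parental array. It was at least 1.80-fold higher on the background-corrected scale (adjusted p = 5.34e-05). This bound too holds for that scale only, and without background subtraction the CDH3 difference was 0.42. DSC3, a desmosomal cadherin, rose by 0.61 (adjusted p = 3.87e-04), while its other probe gave 0.41 (adjusted p = 0.172). Proteins that bind cadherin tails or shed cadherins were measured for 16 of 20, with 6 higher and 0 lower (median 0.224, 37.5% called), and 2 higher and 3 lower after median scaling. Without resistant replicate 3 the higher count was 3, and without resistant replicate 1 there was 1 lower. CTNNA1 and CTNNB1, the alpha- and beta-catenins, did not pass the test (-0.05 and 0.06). PIP5K1C, a lipid kinase that helps traffic E-cadherin, rose by 0.71, or 0.46 without background subtraction. ADAM10, a protease that cleaves cadherin ectodomains, rose by 0.45 (0.28 after median scaling), while its other probe gave 0.28 (adjusted p = 0.154). EPN1, an endocytic adaptor, rose by 0.42 (0.23 and not called after median scaling, adjusted p = 0.058), and CTNND1, which encodes p120-catenin, rose by 0.37 (adjusted p = 0.0332, a call lost in 10 of 18 alternatives), or 0.13 without background subtraction, and its other probe gave 0.58 and was called.

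Vimentin's partners and other intermediate filaments were measured for 11 of 16, with 3 higher and 5 lower (median -0.158, 72.7% called), and 0 higher and 6 lower after median scaling. The higher count was 1 without each of the arrays other than resistant replicate 1. NES, which encodes the filament protein nestin, fell by 1.21 (adjusted p = 4.35e-05), from 9.20, 9.05 and 9.09 on parental to 8.01, 7.76 and 7.94 on resistant arrays. SYNM (synemin) and INA (internexin) each fell by 0.58 (adjusted p = 0.00206 and 0.00126), SYNM by 0.36 without background subtraction. CDK5, a kinase that phosphorylates vimentin, gave 0.58 (adjusted p = 0.022), or 0.27 without background subtraction, and its call was lost in 4 of 18 alternatives.

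TGF-beta signalling induces the SNAI and ZEB factors in many epithelia. Of 24 listed inputs and SMADs, 16 were measured, with 4 higher and 2 lower (median 0.0307, 37.5% called), 4 and 4 after median scaling, and 4 lower without parental replicate 1. TGFB2, the one isoform of the TGF-beta ligand detected here, rose by 2.23 (SE 0.129, adjusted p = 8.75e-06), from 6.05, 6.56 and 6.40 on parental to 8.51, 8.59 and 8.60 on resistant arrays, and by 1.40 without background subtraction. TGFBI, a secreted matrix protein induced by TGF-beta, rose by 1.06 (adjusted p = 2.34e-05), LTBP2, which binds matrix microfibrils, rose by 0.86 (adjusted p = 6.68e-04), and SMAD3, a receptor-activated SMAD, rose by 0.63 (adjusted p = 0.00164). SMAD2 read 6.40, 6.14 and 6.17 on parental and 6.04, 6.20 and 5.89 on resistant arrays, and its groups overlapped. TGFB1, TGFB3 and TGFBR1 were detected on no array, and TGFBR2 fell by 0.61.

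Epithelial genes that SNAI and ZEB factors repress were measured for 10 of 25, with 2 higher and 4 lower (median -0.206, 60% called), and 2 higher and 6 lower after median scaling. The lower count was 2 without parental replicate 3 or resistant replicate 2, and the higher count 1 without parental replicate 1, parental replicate 3 or resistant replicate 1. EPCAM, an epithelial adhesion molecule, fell by 2.01 (adjusted p = 1.60e-04), from 6.74, 6.74 and 6.54 on parental to 5.18, 4.35 and 4.45 on resistant arrays, of which 1 detected it. Without background subtraction EPCAM fell by 0.77. AP1M2, the adaptor subunit that sorts proteins to the basolateral membrane, fell by 1.24 (adjusted p = 7.67e-05), from 6.909, 7.089 and 6.999 to 5.662, 5.967 and 5.662. Without background subtraction AP1M2 fell by 0.56. PKP3, a desmosomal plakophilin, gave 0.79 (adjusted p = 0.0242), or 0.27 without background subtraction, and its call was lost in 4 of 18 alternatives. DSP, which encodes desmoplakin, went higher with its brightest probe (0.74, adjusted p = 0.00134), while its other probes gave 0.19 and 0.45 and were not called. The keratins KRT8 and KRT18 did not pass the test (-0.01 and -0.13). KRT19 went from 13.53, 13.26 and 13.50 on parental to 13.22, 13.10 and 13.11 on resistant arrays, and its groups did not overlap.

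Mesenchymal genes raised in the transition were measured for 19 of 24, with 10 higher and 4 lower (median 0.355, 73.7% called), and 10 higher and 5 lower after median scaling. The lower count was 2 without parental replicate 1 or parental replicate 2. Its largest differences, by the rule for named genes, were in COL1A1, a chain of type I collagen, which rose by 3.41, COL5A1, a chain of type V collagen, which rose by 2.24, TAGLN, the actin-binding protein transgelin, which rose by 1.94, and FN1, fibronectin, which rose by 1.66. Without background subtraction COL1A1 rose by 1.97 and FN1 by 0.58, and FN1 was detected on 1 of 3 parental arrays. Of 12 fibroblast markers 3 were measured, with MFAP5 higher (3.06), FBLN1 lower and PDGFRB not called (0.25). The summed log2 level of these 3 was 17.72 to 18.03 on parental and 20.48 to 21.19 on resistant arrays. The rise of this sum lay in MFAP5. PDGFRA, THY1, DCN, LUM, DPT and COL14A1 were detected on no array. Without resistant replicate 1 the higher count was 2. The part of fibroblast markers in the result was not tested.

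**Figure D4:**
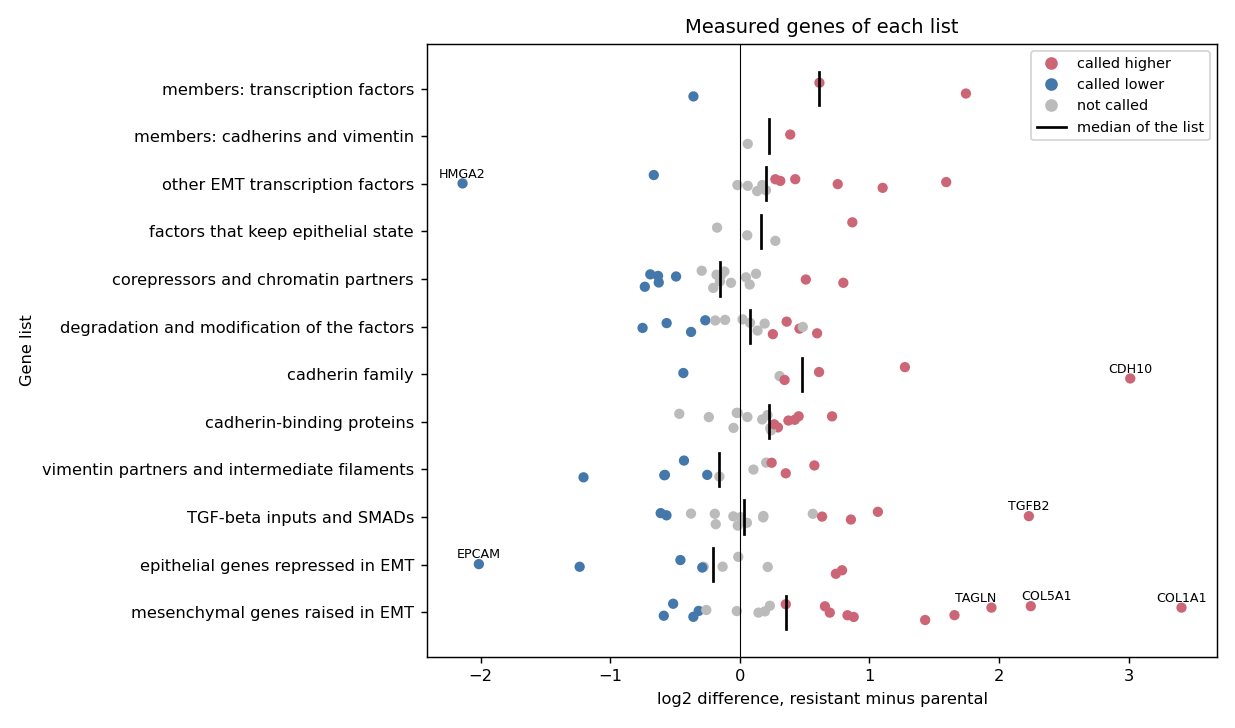
Log2 difference, resistant minus parental, of every measured gene in each of the lists, with a line at each list's median. Mesenchymal genes have the median 0.355 and the cadherin family 0.478, while the epithelial genes have -0.206.

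Around each called member, 10 measured genes on each side were taken in the order of the GRCh38.p14 gene table, to be read against 22.4% of all tested genes called higher and 23% called lower. The neighbourhoods were not tested against each other. Near TWIST1 on chromosome 7, 3 genes were higher, 12 lower and 5 not called, with a median of -0.52 and a range from -1.48 (TSPAN13) to 0.98 (IL6), and 13 of the 20 fell further than TWIST1 did. The nearest were HDAC9 (0.18, not called) and POLR1F (-1.28). Near ZEB2 on chromosome 2, 14 were higher, 1 lower and 5 not called, with a median of 0.44 and a range from -0.85 (NXPH2) to 4.59 (KYNU), and 6 rose further than ZEB2. The nearest were QTMAN (0.91) and ACVR2A (0.84). Around SNAI2 on chromosome 8, 5 were higher, 3 lower and 12 not called (median -0.05), and none of the 20 rose as far as SNAI2, the highest being PCMTD1 at 1.02, which with UBE2V2 (-0.01) was nearest to it. Around CDH2 on chromosome 18, 3 were higher, 3 lower and 14 not called (median 0.05). There the neighbours KCTD1 (0.13, not called) and DSC3 (0.61) lay on either side.

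**Figure D5:**
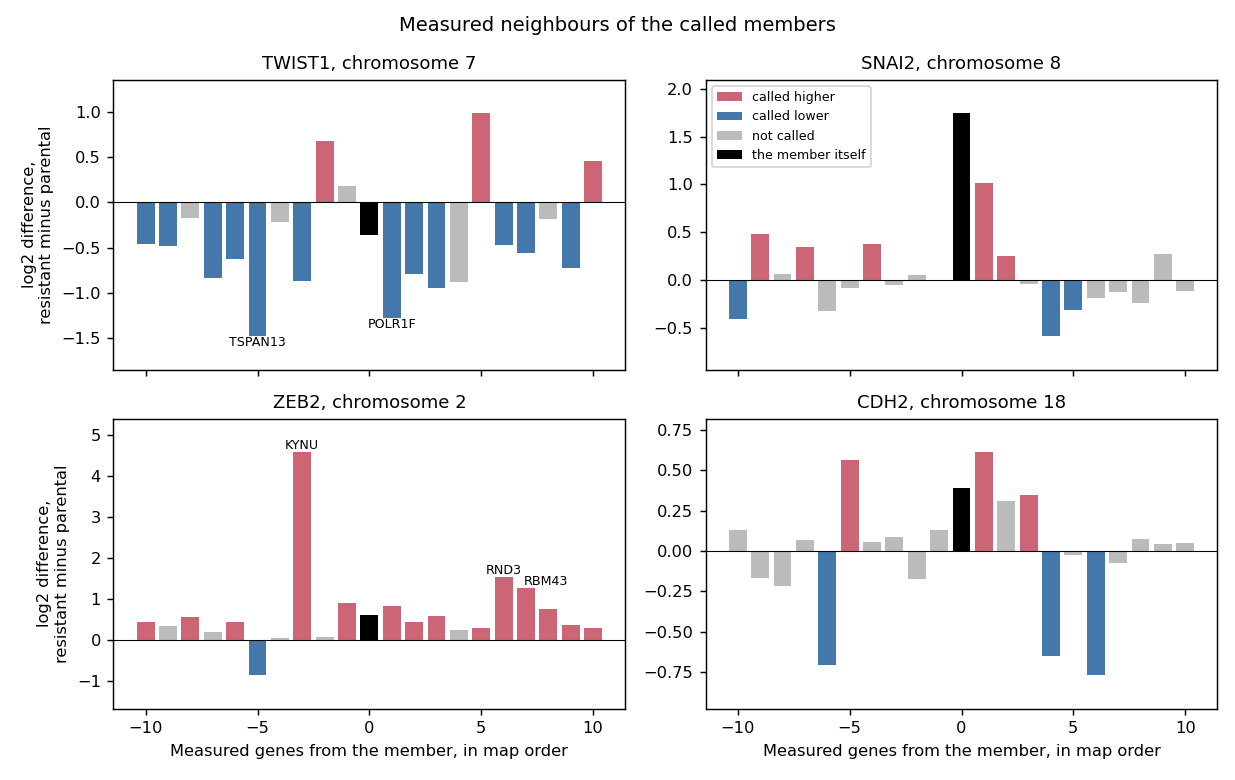
Log2 difference of the 10 measured genes on each side of TWIST1, SNAI2, ZEB2 and CDH2 along the chromosome, in map order as bars, with the member as a black bar at the centre. Most neighbours of TWIST1 lie below 0 and most neighbours of ZEB2 above 0, and the SNAI2 bar is higher than those of its 20 neighbours.

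The genes whose centred log2 values over the 6 arrays lay nearest to those of each called member, by Euclidean distance among 9686 genes detected on all arrays, were as follows. For TWIST1 they were FAR1 (distance 0.0898) and PNP (0.0979). SNAI2 was closest to IFI44 (0.135) and TIMP3 (0.153). ZEB2 had THAP7 (0.152) and IDH1 (0.165) nearest, and CDH2 had ASH2L (0.0459) and EXD2 (0.0619). Their differences between the groups were -0.37 and -0.36 beside TWIST1, 1.78 and 1.66 beside SNAI2, 0.59 for both genes beside ZEB2, and 0.41 and 0.38 beside CDH2. Like differences follow from choosing genes by distance over these same arrays, so they show no link between the genes.

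E-box letters at the promoters were searched because SNAI and ZEB factors bind CACCTG, or CAGGTG when read from the other strand. The 250 bases before the RefSeq start site are shown on GRCh38.p14, 5′ to 3′ on the gene's strand, with matches in capitals, for CDH2, whose message rose, for AP1M2, a repressed target that fell, and for DSG2, a desmosomal cadherin beside CDH2 on chromosome 18. AP1M2 and DSG2 were chosen after their values and matches were seen. CDH2 lies at chr18:28177131-28177380 (minus strand), AP1M2 at chr19:10587313-10587562 (minus strand) and DSG2 at chr18:31497927-31498176 (plus strand).
CDH2: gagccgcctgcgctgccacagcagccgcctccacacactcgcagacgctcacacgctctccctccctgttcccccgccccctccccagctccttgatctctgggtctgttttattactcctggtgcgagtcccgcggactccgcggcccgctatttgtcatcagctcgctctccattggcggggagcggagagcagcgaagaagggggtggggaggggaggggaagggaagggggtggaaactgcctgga
AP1M2: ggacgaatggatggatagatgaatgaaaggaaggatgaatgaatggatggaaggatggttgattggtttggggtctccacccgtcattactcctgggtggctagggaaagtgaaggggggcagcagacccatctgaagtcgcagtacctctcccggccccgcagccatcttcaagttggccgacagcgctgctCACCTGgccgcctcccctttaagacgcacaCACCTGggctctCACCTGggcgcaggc
DSG2: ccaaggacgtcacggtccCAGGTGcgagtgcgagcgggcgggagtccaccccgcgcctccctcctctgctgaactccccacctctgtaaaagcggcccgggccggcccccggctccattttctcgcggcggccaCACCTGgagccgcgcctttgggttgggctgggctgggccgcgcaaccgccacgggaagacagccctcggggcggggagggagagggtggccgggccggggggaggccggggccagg
AP1M2 held 3 matches, starting at -57, -27 and -15 from the start site, DSG2 held 2, at -232 and -116, and CDH2 held 0. Among 35116 RefSeq start sites, 17.5% held at least 1 match, 2.53% at least 2 and 0.464% at least 3. Of the 8 members 4 were matched to RefSeq promoters. ZEB1 held a match at 2 of 7 start sites, and ZEB2, CDH2 and VIM held none. Among 28 named list genes with a RefSeq start, 28.6% held a match at any of their start sites. This share is per gene and the 17.5% above is per start site, so they are not to be compared. A match is a run of letters only, and neither binding nor its effect was measured. DSG2 was called higher by 0.35, and AP1M2 was called lower.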

How the data were processed

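The authors deposited, for 6 Illumina arrays of 47225 probes, a table of intensity and detection p-value per probe, and another of log2 values. For parental replicate 1 the deposited log2 values equal the log2 intensity within 1.55e-06. Per the labels' protocols, RNA was turned into biotin-labelled cRNA. The sources used here do not give how either table was normalised. In 3269 rows the intensity and detection columns were exchanged and the value was a natural log of intensity. Restored as its exponential, they ranked with the deposited log2 values exactly (rank correlation 1, against 0.906 for base 2). From the intensities, limma 3.58.1 in R 4.3.3 gave normexp background correction from the detection p-values (offset 16), quantile normalisation and lmFit with eBayes. Probes that all 3 arrays of either group detected (p under 0.05) were tested (17843), with Benjamini-Hochberg adjustment. For lists, each gene was its brightest kept probe (10672 genes). Of the probes, 30111 had 1 gene name, 8 several and 17106 none listed. Array number limits the precision.

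Named genes were all members, up to 4 called genes per list with the largest difference, non-overlapping groups and detection on all arrays of the brighter group, the 2 nearest genes by pattern and the nearest neighbours. MicroRNA precursors, MSLN, BNC1, WT1, DSG2, KRT8, KRT18, KRT19, CTNNA1, CTNNB1 and TGFBR2 were added after values were seen. So were ID1, ID3, FBXW7, SMAD2, the genes at the ends of the neighbours' ranges and the undetected list genes. Members and lists were chosen with earlier results of these data known. Replicate numbers did not pair the samples (correlation of same-numbered deviations -0.0619, 0.0148 and 0.0626). Alternatives changed background correction, offset, normalisation, filter, probe choice, source of values, arrays and rows.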

Additional observations from a re-analysis of the deposited data

How the results depend on the processing

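The 155 comparisons of a member result with an alternative setting held counts of called members as well as single differences. Of these 144 were classed as unchanged, among them VIM staying not called. Also classed so was the count of higher member probes, 4, which was 3 after median scaling. The changed ones were the TWIST1 and CDH2 probes and counts of lower members. No difference changed direction. Median scaling took the CDH2 probe to 0.2537 (adjusted p = 0.0597) and the median of all genes to -0.152, so that CDH2 lay 0.406 above it. With no detection filter the TWIST1 probe kept -0.3577 but its adjusted p was 0.0574 over 47225 probes, so 0 member probes were lower. Leaving out each array in turn gave TWIST1 differences of -0.4127 to -0.2806, and 0 to 1 member probes and 0 to 1 member genes lower. A replicate block gave TWIST1 an adjusted p of 0.0442, SNAI2 2.26e-04, ZEB2 0.00726 and CDH2 0.0237, and changed no call. The arrays' numbers do not pair the samples. With fewer arrays the test has fewer samples, and with no detection filter it adjusts over more probes. Without background subtraction the ZEB2 difference was 0.2851. SNAI1, ZEB1 and CDH1 could not be compared at this signal over background.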
